A study of Drosophila melanogaster with 42 samples.

Results

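Enrichment of 491 candidate regulatory regions was described in the CD2+ cells of Drosophila melanogaster embryos that carried the twi driver, by setting the 3 libraries of GFP+ cells against the 3 libraries of their input. These 6 libraries were chosen by their titles from the 42 of the series, and all 491 regions were kept, from 288 named ChIPCRM, 107 named for a gene, 49 named DHS_FC, 38 named CBP and 9 named DHS_FCM. Regions were 900 to 1101 bp long and are given with dm3 coordinates.

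Males from a pool of transgenic lines, with candidate regions placed before a GFP reporter, had been mated to females that make the rat surface protein CD2 in a chosen cell type. Egg collections lasted 2 to 2.5 h (25 °C) and embryos then developed for 9 to 10 h (18 °C). The dissociated cells were labelled with an antibody to CD2 and sorted by flow cytometry. The GFP+ group holds the cells positive for both CD2 and GFP, and the input group holds CD2+ cells taken without selection on GFP, so both carry the same driver and the same pool of inserts. Inserts were amplified from genomic DNA by nested PCR and sequenced. The labels used here name no strain and no single insert line. Extracts were pooled by sample type before PCR, with nothing that says whether replicates came from separate crosses. P-values therefore cover the spread among the 3 libraries of a group and no more, and that spread may be a technical one.

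Enhancers are stretches of DNA that bind transcription factors and switch a nearby promoter on in certain cells. twist (twi) codes for a basic helix-loop-helix transcription factor of the early mesoderm, the germ layer that gives rise to body wall muscle, heart, gut muscle and fat body. In a cell sort of this kind an insert that drives GFP in the marked cells should make up a larger share of the inserts in GFP+ cells than in the input. The readout is inserted DNA and holds no RNA or protein, so marker genes of the mesoderm could not be used to check the sorted cells. No region was named for twi, and the single region named for Mef2, a muscle transcription factor, had 0 reads in these 6 libraries. That region may not have been among the inserts of these embryos. Within a library, more GFP+ cells per embryo and more embryos that carried a region cannot be told apart.

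The GFP+ libraries came from 102303, 111875 and 100783 cells and held 20798966, 23034282 and 18016557 reads, and the inputs came from 100000, 200000 and 200000 cells and held 19495619, 18369499 and 18552673 reads. Of the 491 regions, 248 had a read in at least 1 of the 6 libraries and 243 had none. Each input listed 222 to 227 regions with a read and each GFP+ library 183 to 196. In GFP+ cells 62.2% to 74.0% of a library's reads fell in its 10 most abundant regions, and in input 30.9% to 31.5%. It took 32 to 47 regions to reach 90% of the reads in a GFP+ library and 74 to 77 in an input.

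Values are given as CPM, the reads of a region per 1e6 reads of its library, as mean ± SD over 3 libraries where a mean is given. CPM adds up to the same total in every library, so a few very abundant regions leave less for all others. Log2 changes are from edgeR's quasi-likelihood test with TMM scaling, which centres the bulk of the regions instead of the total. On the TMM scale the median log2 change of the 195 regions tested was -0.51, and scaling by total reads moved the log2 changes by -1.61 (median over regions of the move). A region could thus have a lower CPM in GFP+ cells and still a log2 change near or above 0, and changes are best read against that median.

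At an adjusted p of 0.05, 10 of the 195 regions tested were higher in GFP+ cells, which is 5.13%, and 0 were lower, which is 0.0%. Of the 10, 9 lay on chromosome arm 3R and carried ChIPCRM names, and 1, CG7759_33, lay on 2R and was named for a gene. At an unadjusted p of 0.05, 18 regions were higher and 8 lower. DESeq2 called 13 higher (6.67%) and 11 lower (5.64%). These are shares of all 195 regions entered, of which some, such as CG15319_b_c_1, had no DESeq2 result. With total reads in place of TMM, the test called 6 higher and 4 lower, so the split of calls depends on the scaling. The 6 were among the 10, and the 4 lower were Ubx_18, DHS_FC_15, ChIPCRM752 and mud_a.

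**Figure D1:**
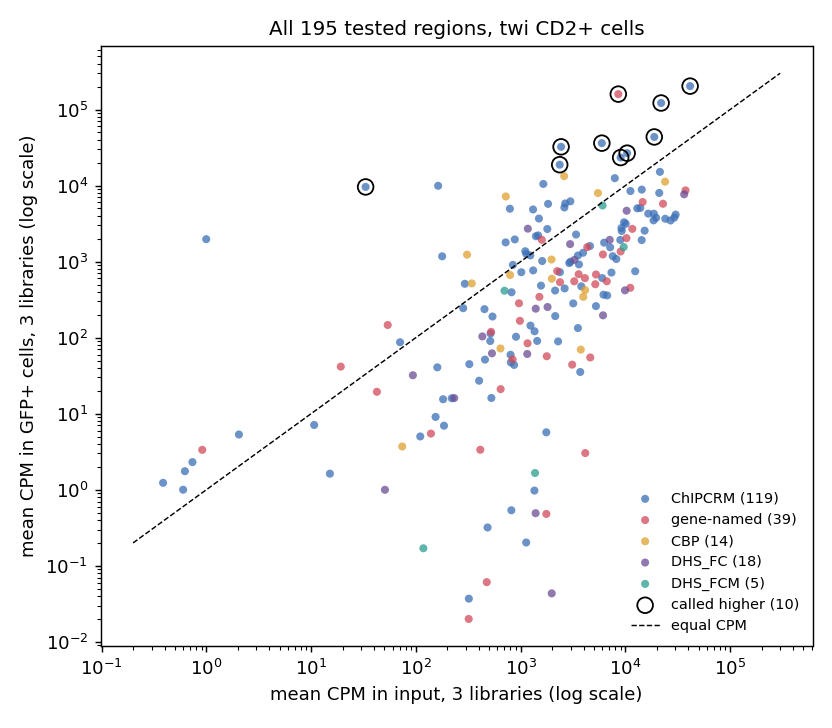
Mean CPM in GFP+ cells (y axis, log scale) against mean CPM in input (x axis, log scale) for the 195 tested regions of twi CD2+ cells, coloured by name class, with the 10 called regions ringed and a dashed line at equal CPM. The called regions lie above the line and most others below it, and slou_Up_2, with 0 GFP+ reads, is drawn at 0.02 CPM.

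The most abundant region in both groups was ChIPCRM3152 (3R 21835656 to 21836646). It had 238455, 195450 and 175074 CPM in the 3 GFP+ libraries and 42100, 42591 and 39731 CPM in the inputs. The inputs thus lay close together and every GFP+ library lay at least 4 times above them in read share. Its mean CPM rose 4.89-fold, from 41474 ± 1530 to 202993 ± 32357. On the TMM scale, which differs from that of the CPM ratio, the log2 change was 3.91 ± 0.26 (SE, adjusted p = 3.73e-05). With total-read scaling it was 2.29.

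CG7759_33 (2R 7287136 to 7288168) showed the largest rise among the 3 most abundant regions. Its identifier names Smyd4-3, a gene of the SET and MYND domain family. It had 192258, 165625 and 120064 CPM in GFP+ cells and 8287, 11708 and 5689 CPM in input. In the inputs it ranked at place 40, and in GFP+ cells at place 2. The mean CPM rose 18.6-fold. The log2 change was 5.85 ± 0.44 on the TMM scale (adjusted p = 5.1e-05) and 4.22 with total-read scaling.

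ChIPCRM2907 (3R 17989695 to 17990673) had 122254, 137230 and 105807 CPM in GFP+ cells and 15082, 27276 and 23416 CPM in input. The groups did not overlap, and the mean CPM rose 5.55-fold. On the TMM scale the log2 change was 4.11 ± 0.37 (adjusted p = 0.000150). Together these 3 regions took 55.3%, 49.8% and 40.1% of the reads of the GFP+ libraries and 6.55%, 8.16% and 6.88% of the inputs.

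Another 5 called regions reached between 23356 and 43557 CPM in GFP+ cells on average. ChIPCRM2256 (3R 10104020 to 10105007) had 55207, 36658 and 38806 CPM against 29826, 16291 and 10483 in input. Its lowest GFP+ library lay just above its highest input, and the log2 change was 2.82 ± 0.50 (adjusted p = 0.00855). ChIPCRM2898 (3R 17959709 to 17960651) had 31105, 29022 and 19873 CPM against 13343, 8267 and 9578 in input, with no overlap and a log2 change of 3.01 ± 0.52 (adjusted p = 0.00833).

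ChIPCRM2497 (3R 12569639 to 12570593) had 11207, 38593 and 47124 CPM in GFP+ cells against 2508, 2832 and 1960 in input. The first GFP+ library was well below the other 2, yet above every input. The mean CPM rose 13.3-fold, and the log2 change on the TMM scale was 5.31 ± 0.68 (adjusted p = 0.00140). This region overlaps ChIPCRM2496 by 60 bp, and ChIPCRM2496 itself had 0 reads in these libraries.

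ChIPCRM2847 (3R 17437327 to 17438327) was the weakest call. It had 12631, 27024 and 30415 CPM in GFP+ cells and 3451, 8010 and 15582 CPM in input. The third input lay above the first GFP+ library, and this was the sole called region whose groups overlapped. Its log2 change was 2.97 ± 0.70 (adjusted p = 0.0470). Without the third input the log2 change was 3.61, and leaving out any of the other 5 libraries ended the call.

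ChIPCRM2754 (3R 16375852 to 16376858) had 15857, 16672 and 23883 CPM in GFP+ cells against 1087, 1482 and 4515 in input. Its mean CPM rose 7.96-fold, and the third input stood above the other 2. The log2 change on the TMM scale was 4.57 ± 0.77 (adjusted p = 0.00819). Without that input the log2 change was 5.45.

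ChIPCRM2299 and ChIPCRM2300 were 2 called neighbours on 3R, 1842 bp apart. ChIPCRM2299 (3R 10412527 to 10413427) had 37665, 39136 and 31529 CPM in GFP+ cells against 5608, 8721 and 3553 in input, a log2 change of 4.22 ± 0.54 (adjusted p = 0.00140). ChIPCRM2300 (3R 10415270 to 10416230) had 11444, 6474 and 10864 CPM in GFP+ cells, but 1.95, 90.2 and 7.33 CPM in input. These inputs rest on 38, 1657 and 136 reads, and the second supplied most of them. The log2 change was 9.72 ± 1.82 (adjusted p = 0.0119), and 12.61 without the second input.

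A region on the other side of ChIPCRM2299, ChIPCRM2298 (3R 10410640 to 10411733), lay 793 bp away. It had 0.144, 0.738 and 16.2 CPM in GFP+ cells and 7.08, 5269 and 0.701 CPM in input. The second input was far above all other libraries, and the region was not called (log2 change -6.99, adjusted p = 0.565). ChIPCRM2301, 284 bp from ChIPCRM2300, had 0 reads in these libraries. The other regions within 5 kb of a called one, ChIPCRM2496 and ChIPCRM2499 beside ChIPCRM2497 and ChIPCRM2846 and ChIPCRM2848 beside ChIPCRM2847, also had 0 reads. Whether the neighbours with 0 reads were among the inserts of these embryos is not known.

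**Figure D2:**
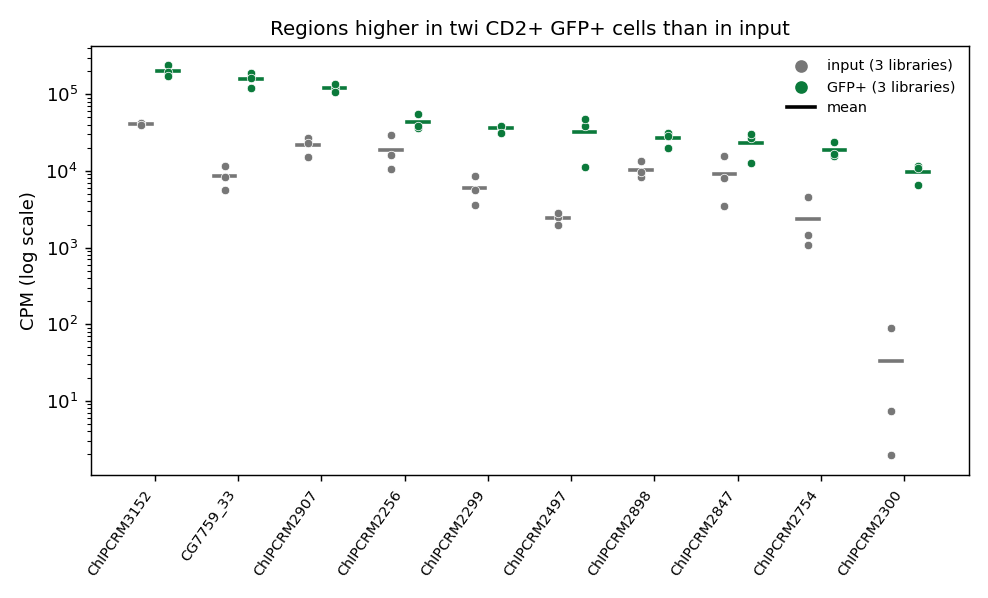
CPM (log scale) of the 10 regions called higher, with 1 point per library, inputs in grey and GFP+ cells in green, and a bar at the mean of 3 libraries. Groups are apart for 9 regions and overlap for ChIPCRM2847, and the inputs of ChIPCRM2300 spread from 1.95 to 90.2 CPM.

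Of the 6 libraries, the second GFP+ library had the largest effect on the calls when left out, since 5 of the 10 then remained. ChIPCRM2256, ChIPCRM2300, ChIPCRM2754 and ChIPCRM2898 then had an adjusted p of 0.0566 and ChIPCRM2847 of 0.174. CG7759_33, ChIPCRM2299, ChIPCRM2497, ChIPCRM2907 and ChIPCRM3152 kept their calls under all 13 alternatives run. The called regions had a median GC content of 43.15%, beside 43.16% over the tested regions, and ranged from 37.9% to 49.6%.

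The share of all reads that the 10 called regions held was 72.8%, 69.2% and 60.3% in GFP+ cells and 12.1%, 12.7% and 11.5% in input. All other regions together therefore held under 40% of a GFP+ library. Of the 129 tested regions with at least 1000 CPM in input, 26 had a higher mean CPM in GFP+ cells, 17 of them more than 2 times higher, and 103 had a lower one. Among the 129, the mean CPM in GFP+ cells was under 0.1 of that in input for 32 regions.

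Beyond the calls, 3 of the 13 regions whose GFP+ libraries all lay above all inputs (6.67% of the regions tested) reached large changes without passing the threshold. ChIPCRM3407 (3R 26580521 to 26581535) had 17214, 6621 and 7659 CPM against 3182, 1435 and 324 in input. Its log2 change was 4.28 ± 1.05 (adjusted p = 0.0543). With the replicate number as a block it passed, at an adjusted p of 0.0289, and that fit made 11 calls higher and 0 lower. It also passed without a filter, with a mean count of at least 100, with end reads, by DESeq2 and without the third GFP+ library (adjusted p = 0.00698 to 0.0470).

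CBP2862 (3L 320026 to 321098) had 9608, 21556 and 8718 CPM in GFP+ cells and 1163, 431 and 6215 CPM in input, a log2 change of 4.07 ± 1.14 (adjusted p = 0.0899). It passed by DESeq2 (adjusted p = 0.0270) and without the third input (log2 change 5.79, adjusted p = 0.0290). CBP5211 (2R 12672264 to 12673253) had 6822, 2902 and 11855 CPM in GFP+ cells and 55.6, 2083 and 29.2 CPM in input (log2 change 4.77 ± 1.75, adjusted p = 0.202). It too passed by DESeq2 (adjusted p = 0.0161) and without the second input (log2 change 8.92, adjusted p = 0.0127). Both inputs ran over a wide range, with 1 library above the other 2.

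ChIPCRM3147 (3R 21824689 to 21825693) had the highest log2 change of all, 12.74 ± 3.28, and was not called (adjusted p = 0.0609). It had 1631 and 4284 CPM in the first and second GFP+ libraries but 1.05 CPM in the third, within the range of the inputs, which had 0.616, 0.817 and 1.56 CPM. The value therefore rests on 2 libraries. It passed without a filter, with the spread from 4 twi groups, by DESeq2 and without the third GFP+ library.

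At the other end, the lowest log2 changes came with high inputs and almost no GFP+ reads, and 0 passed the threshold of the edgeR test with TMM scaling. slou_Up_2 (3R 17358346 to 17359445) had 0 reads in all 3 GFP+ libraries and 244, 696 and 19.0 CPM in input. Taking 3 reads over the group as the most that a count of 0 allows, its mean read share was at least 6587-fold lower, and at least 2709-fold without the second input. These bounds cover counting error and not the spread between libraries. The edgeR test did not call slou_Up_2 (adjusted p = 0.178), and DESeq2 called it lower. DHS_FC_7 (2L 10528622 to 10529610) had 0, 0.13 and 0 CPM in GFP+ cells against 3238, 2678 and 29.0 in input (adjusted p = 0.130).

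mud_a (X 14148156 to 14149216), named for the spindle orientation gene mud, had 4.76, 2.30 and 2.05 CPM in GFP+ cells against 3535, 2657 and 6230 in input. Within a group its libraries lay within 3 times of each other. Its log2 change was -8.78 ± 2.26 (adjusted p = 0.0609), and it passed with total-read scaling (adjusted p = 0.0269) and by DESeq2. ChIPCRM29 (2R 1638806 to 1639869) had 1093, 1266 and 1032 CPM in input and 0, 0.608 and 0 in GFP+ cells (log2 change -10.56 ± 3.87, adjusted p = 0.202), and its inputs were closer together still. DESeq2 called it lower as well.

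The lowest ChIPCRM region was ChIPCRM3406 (3R 26560648 to 26561725), with 0, 0 and 0.111 CPM in GFP+ cells and 445, 516 and 1.24 CPM in input (log2 change -11.63 ± 4.24, adjusted p = 0.202). CG6972_4 (3R 18527611 to 18528685) had 0.0962, 0.0868 and 0 CPM against 1.18, 582 and 841 (log2 change -11.12 ± 4.10, adjusted p = 0.202). In each, 1 input was close to the GFP+ level and the other 2 were far above it. DHS_FC_21 (2R 18981377 to 18982286) and DHS_FCM_5 (2R 20956572 to 20957640) had at most 1.48 and 0.337 CPM in GFP+ cells, and inputs of 2.10 to 3932 and of 0.616 to 346 CPM (log2 change -9.57 and -7.73, adjusted p = 0.405 and 0.406). DESeq2 called ChIPCRM3406, CG6972_4 and DHS_FC_21 lower. The lowest region on 3L, ChIPCRM4220 (3L 10647454 to 10648445), had 2442 CPM in the third input and at most 4.68 in any other library (log2 change -8.95, adjusted p = 0.406), so that its groups overlapped.

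Over the tested regions, 81 had every GFP+ library below every input in CPM, which is 41.5%. Over all 491 regions, 26 had reads in input and 0 in GFP+ cells, slou_Up_2 being the sole one tested. In 6 regions GFP+ cells alone had reads, between 1 and 4 in all.

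Most abundant regions of the input had a lower CPM in GFP+ cells. Of the 10 highest in input, ChIPCRM3152 and ChIPCRM2907 were called, and the other 8 had a lower mean CPM in GFP+ cells. Ubx_18 (3R 12506697 to 12507685), named for the Hox gene Ultrabithorax, had 37225, 41572 and 33686 CPM in input, the second highest mean, and 7398, 9202 and 9331 CPM in GFP+ cells. The groups were far apart in CPM, but the log2 change on the TMM scale was -0.51 ± 0.50 (adjusted p = 0.782), equal to the median region. With total-read scaling it was -2.12 (adjusted p = 0.0111), and with DESeq2 0.05.

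DHS_FC_15 (2R 16486173 to 16487235) had 32409, 39905 and 36902 CPM in input and 5493, 11075 and 6425 CPM in GFP+ cells. ChIPCRM752 (2R 10315985 to 10316956) had 27993, 23949 and 38627 CPM in input and 4839, 1794 and 5820 CPM in GFP+ cells. In both the groups stood apart in CPM, with log2 changes of -0.58 and -1.34 on the TMM scale (adjusted p = 0.782 and 0.406) and of -2.25 and -2.86 with total-read scaling (adjusted p = 0.0144 and 0.0218). The other 5, ChIPCRM5806, ChIPCRM2845, ChIPCRM770, CBP1410 and cib_Up_4, had 22857 to 29304 CPM in input and 3474 to 11248 in GFP+ cells on average, and none was called under either scaling. Beside the called regions, ChIPCRM3043 completed the 10 most abundant in GFP+ cells, with 17113, 21546 and 6754 CPM against 24477, 23872 and 15740 in input, and its groups overlapped.

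Of the regions named for genes, 105 of 107 matched 1 symbol (47 genes), and 39 were tested. By edgeR with TMM scaling CG7759_33 was called higher, and the other 38 were not called in either direction. DESeq2 called 4 of these lower, mud_a, CG6972_4, slou_Dn_9 and slou_Up_2, and total-read scaling called Ubx_18 and mud_a lower. The median log2 change of the 39 was -1.02, beside -0.51 over all tested regions. Every GFP+ library lay below every input in 21 of the 39, beside 41.5% of all tested regions.

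Transcription factors that set the identity of the mesoderm and of single muscles were represented by 35 regions, of which 18 had a read and 13 were tested. By edgeR 0 of the 13 were called in either direction, against 5.13% of all tested regions called higher, and 2 had an unadjusted p under 0.05, both lower. DESeq2 called these 2, slou_Up_2 and slou_Dn_9, lower (adjusted p = 3.13e-07 and 1.42e-05). The median log2 change of the 13 was -1.15. Every GFP+ library lay below every input in 7 of the 13, beside 41.5% of all tested regions. Most belong to org-1, a T-box factor, and slouch (slou), an NK homeodomain factor, both known in Drosophila for roles in setting the identity of muscle founder cells.

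For org-1, 20 regions were in the pool and 6 were tested. CG11202_down_1 (X 8336098 to 8337186) had 5076, 4522 and 10339 CPM in input and 391, 718 and 543 CPM in GFP+ cells, with no overlap and a log2 change of -1.95 ± 1.29 (adjusted p = 0.655). CG11202_down_9 (X 8340516 to 8341477) had 2197, 2175 and 8608 CPM in input and the most even GFP+ values of this gene, 1493, 1544 and 1618 CPM (log2 change 0.14 ± 1.24, adjusted p = 0.958). The 6 regions ranged in log2 change from -3.35 to 3.13, the upper end being CG11202_up_4, which had at most 10.0 CPM in any library.

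For slou, 11 regions were in the pool and 5 were tested. slou_Dn_9 (3R 17386567 to 17387639) had 380, 2935 and 1964 CPM in input and 0, 0 and 1.44 in GFP+ cells, a log2 change of -10.56 ± 3.88 (adjusted p = 0.202). slou_Up_30 (3R 17373179 to 17374255) had 4328, 196 and 6216 CPM in input and 1142, 1.26 and 906 CPM in GFP+ cells, where the groups overlapped. In that region the second library was the lowest in both groups. slou_Up_14 (3R 17364705 to 17365731) had 648, 3709 and 2346 CPM in input and 788, 1463 and 0 in GFP+ cells, with a log2 change of 0.20.

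nau_a_4 (3R 19540662 to 19541717), named for nautilus, the Drosophila relative of the vertebrate MyoD family, was measured evenly. It had 8589, 9719 and 8728 CPM in input and 1123, 1305 and 1647 CPM in GFP+ cells. Every GFP+ library lay below every input in CPM, and the log2 change was -1.14 ± 0.99 (adjusted p = 0.774). The mid_30 region (2L 5495692 to 5496785), named for midline, a T-box factor of the heart, had 4241, 2890 and 2.48 CPM in input and 1609, 0.174 and 0.0555 CPM in GFP+ cells, so that libraries of 1 group differed by more than the groups.

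Genes of muscle attachment, structure and fusion gave few measurable regions. betaTub60D_17 (2R 20203572 to 20204550), named for a beta-tubulin of developing muscle, had 21161, 5802 and 6449 CPM in input and 1356, 0.13 and 1.17 CPM in GFP+ cells (log2 change -2.99 ± 2.50, adjusted p = 0.756), and was called lower when the first GFP+ library was left out. rst_8 (X 2941103 to 2942116), named for roughest, an adhesion molecule of myoblast fusion, had 2173, 2357 and 2.43 CPM in input and 1031, 0.26 and 0.0555 CPM in GFP+ cells. CG10275_32 (2L 18503162 to 18504141), named for kon-tiki (kon), a transmembrane protein of muscle attachment, had 5.18, 1223 and 9.22 CPM in input and at most 6.77 in GFP+ cells. These regions were read in some libraries at 1031 CPM or more and in others of their group at a few, and rst_8 and CG10275_32 overlapped between groups.

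Co-factor and chromatin genes made up 18 regions, 6 of them tested, and CG7759_33 was the 1 called. It is on this list with its result known, so the count is not independent. The other 5 belong to nejire (nej), the gene of the histone acetyltransferase CBP. For nej 17 regions were listed, most of them tiles that overlap their neighbours, and 9 had a read in these 6 libraries. CG15319_down_11 (X 9562058 to 9563093) had 10733, 16269 and 16820 CPM in input and 1361, 6242 and 10625 CPM in GFP+ cells (log2 change 0.27 ± 0.82, adjusted p = 0.926). CG15319_down_9 (X 9561013 to 9562041) had 10026, 11406 and 13510 CPM in input and 2109, 1841 and 4132 CPM in GFP+ cells (log2 change -0.59 ± 0.83, adjusted p = 0.819).

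The remaining nej regions, CG15319_down_1, CG15319_down_3 and CG15319_b_c_1, had log2 changes of -4.76, -4.53 and -2.72 (adjusted p = 0.607, 0.590 and 0.816). By edgeR 0 of the 5 were called, against 5.13% of all tested regions called higher. In 4 of the 5 every GFP+ library lay below every input, beside 41.5% of all tested regions. DESeq2 did not call CG15319_down_1, CG15319_down_3, CG15319_down_9 or CG15319_down_11, and CG15319_b_c_1 had no DESeq2 result. The second Hox region, abd-A_3 (3R 12699417 to 12700411), had 4108, 10081 and 1302 CPM in input and 968, 1.65 and 542 CPM in GFP+ cells (log2 change -1.86 ± 1.95, adjusted p = 0.803). Of the 15 tested regions named for genes outside these lists, edgeR with TMM scaling called 0, against 5.13% of all tested regions called higher. At an unadjusted p of 0.05, 2 were lower, and by DESeq2 mud_a and CG6972_4 were called lower. The median log2 change of the 15 was -0.93. Every GFP+ library lay below every input in 7 of the 15, near the 41.5% of all tested regions. None of the 491 regions was named for a gene on the lists for blood, the nervous system or ectoderm.

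**Figure D3:**
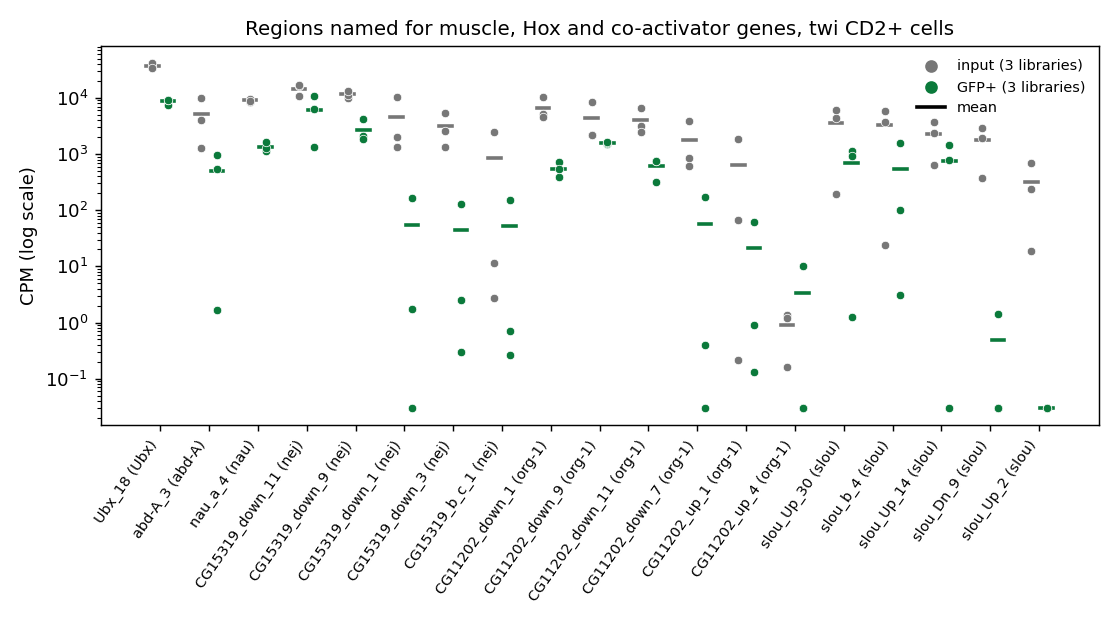
CPM (log scale) per library for the 19 tested regions named for Ubx, abd-A, nau, nej, org-1 and slou, inputs in grey and GFP+ cells in green, with a bar at the mean. Values of 0 are drawn at 0.03 CPM. Ubx_18 and nau_a_4 hold tight groups with GFP+ below input, and many others spread over several powers of 10 within a group.

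By name class, the edgeR test made calls among ChIPCRM regions in 9 of 119 tested and among gene-named regions in 1 of 39. It called 0 of 18 DHS_FC, 14 CBP and 5 DHS_FCM regions. Over all tested regions it called 10 of 195 (5.13%), so 0 calls among so few regions do not set these classes apart. DESeq2 called CBP2862 and CBP5211 higher and DHS_FC_7, DHS_FC_21 and DHS_FCM_1 lower, and total-read scaling called DHS_FC_15 lower. The median log2 change was -0.25 for ChIPCRM, 0.57 for CBP, -0.85 for DHS_FCM, -1.02 for gene-named and -1.05 for DHS_FC regions. A difference between classes in the share called was not tested.

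The extremes of these classes were as follows. The highest DHS_FC region was DHS_FC_33 (3L 14776510 to 14777601), with 279, 3682 and 4169 CPM in GFP+ cells and 659, 1731 and 1125 CPM in input (log2 change 2.79, adjusted p = 0.499). The highest DHS_FCM region, DHS_FCM_6 (3L 6047723 to 6048746), had 5998, 3220 and 7187 CPM against 9536, 7329 and 1300 (log2 change 1.39, adjusted p = 0.663). In both the groups overlapped. The lowest DHS_FCM region, DHS_FCM_1 (2L 132276 to 133304), had 0, 3.43 and 1.55 CPM in GFP+ cells and 1341, 9.15 and 2770 CPM in input (log2 change -7.96, adjusted p = 0.405), and the lowest CBP region, CBP2619 (2L 19034587 to 19035609), had 166, 39.1 and 3.55 against 183, 1271 and 9810 CPM (log2 change -4.07, adjusted p = 0.590). Both stood below input in every library, and their inputs differed among themselves by more than 10 times. The highest region on 2L, ChIPCRM5556 (2L 6177166 to 6178185), had 4586, 1688 and 8281 CPM against 1759, 1560 and 625 and overlapped (log2 change 3.36, adjusted p = 0.174).

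The share of reads per class was compared library by library, with an exact two-sided permutation test whose smallest p for 3 against 3 libraries is 0.1. DHS_FC regions held 1.61%, 2.10% and 2.62% of the reads in GFP+ cells and 8.59%, 8.62% and 8.68% in input. ChIPCRM regions held 71.8%, 72.6% and 74.3% against 63.8%, 66.4% and 65.1%. DHS_FCM regions held 0.793%, 0.593% and 0.845% against 2.20%, 1.44% and 1.73%. In these 3 classes the groups did not overlap (exact p = 0.1 each, 0.125 after Benjamini-Hochberg adjustment over the 10 shares of classes and arms). Without the most abundant region, ChIPCRM3152, the difference for ChIPCRM regions went from 7.79 to 2.32 percentage points and the exact permutation p to 0.3. The DHS_FC and DHS_FCM differences were then -6.37 and -0.931 (exact permutation p = 0.1 each). The 10 called regions, all outside these classes, took 60.3% to 72.8% of the GFP+ reads and 11.5% to 12.7% of the input. That left less for other classes. Class shares outside the called regions were not computed, so a fall of DHS_FC or DHS_FCM regions beyond that is not shown. The DHS_FC and DHS_FCM classes need not be alike in this.

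Gene-named regions held 22.5%, 19.4% and 17.3% of the reads in GFP+ cells and 20.6%, 18.7% and 18.9% in input, and CBP regions 3.31%, 5.30% and 4.86% against 4.82%, 4.83% and 5.58%. Both overlapped (exact permutation p = 0.8 and 0.6). Of the gene-named share in GFP+ cells, CG7759_33 alone took 15.9% of all reads on average, out of a class mean of 19.7% ± 2.61.

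By chromosome arm, 3R held 63.9%, 64.2% and 61.0% of the reads in GFP+ cells and 38.9%, 40.5% and 35.8% in input. The 9 called regions on 3R made up 53.6%, 52.6% and 48.3% of the GFP+ reads and 10.9% to 11.6% of the input. Of the reads outside the 10 called regions, the other 127 regions of 3R held 38.0%, 37.7% and 31.9% in GFP+ cells and 31.4%, 33.1% and 28.1% in input, where the groups overlapped. The called regions were chosen for their rise, so this is a description.

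Chromosome X held 2.63%, 3.59% and 6.09% of the GFP+ reads and 14.5%, 13.6% and 16.9% of the input reads. The 2L arm held 6.91%, 7.10% and 8.80% against 15.6%, 15.9% and 18.8%, and 3L 3.95%, 4.93% and 6.60% against 14.5%, 16.1% and 15.5%. On 2R the GFP+ share was higher, with 22.6%, 20.2% and 17.5% against 16.5%, 14.0% and 13.02%. CG7759_33 carried this, with 19.2%, 16.6% and 12.01% of all GFP+ reads against 0.829%, 1.17% and 0.569%, and the rest of 2R held 3.37%, 3.59% and 5.52% against 15.7%, 12.8% and 12.5%. All 5 arms separated the 2 groups (exact permutation p = 0.1, the smallest possible, adjusted 0.125). These are shares of all reads. The 10 called regions took 72.8%, 69.2% and 60.3% of them in GFP+ cells and 12.1%, 12.7% and 11.5% in input, which left less for all others. Shares of X, 2L, 3L and 2R among the reads outside the called regions, as given for 3R, were not computed. The lower shares of X, 2L, 3L and the rest of 2R are therefore not shown to go beyond that. Outside the called regions these arms need not all go the same way.

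Region by region, edgeR with TMM scaling called 9 of 62 tested regions on 3R and 1 of 25 on 2R higher. It called 0 of 46 on 2L, 37 on 3L and 25 on X higher, beside 10 of 195 (5.13%) over all arms. DESeq2 also called CBP5211 on 2R, ChIPCRM5556 on 2L and CBP2862 on 3L higher. On 3R it added ChIPCRM3147 and ChIPCRM3407 and did not call ChIPCRM2256 and ChIPCRM2847. The median log2 change was 0.15 on 3R, -0.33 on 2R, -0.65 on 2L, -0.70 on 3L and -1.02 on X. On X, 18 of the 25 tested regions had every GFP+ library below every input, beside 41.5% over all tested regions. Whether the arms differ in the share of regions called was not tested.

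**Figure D4:**
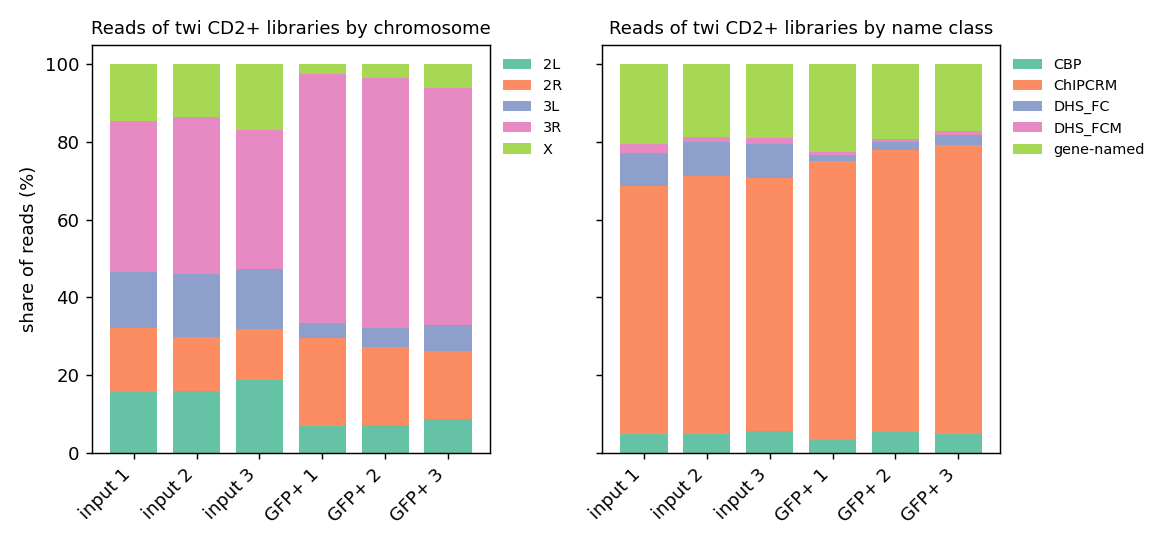
Share of reads (%, stacked to 100) per library, 3 inputs and 3 GFP+ libraries, by chromosome arm on the left and by name class on the right. The 3R band grows from 35.8% to 40.5% in inputs to 61.0% to 64.2% in GFP+ cells, while the DHS_FC band shrinks from about 8.6% to 1.61% to 2.62%.

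How well a level was measured depended on how abundant the region was. Among regions with at least 10000 CPM on average, the median coefficient of variation over 3 libraries was 25.0% in input (31 regions) and 31.9% in GFP+ cells (14 regions). At 1000 to 10000 CPM it was 75.3% and 79.9%, and at 100 to 1000 CPM 97.3% and 168%. Of 186 regions that reached 100 CPM in any input, 116 did so in all 3, and of 157 in any GFP+ library, 62 did so in all 3.

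The same test in the CD2- cells of the same driver, which had 3 GFP+ libraries and 3 inputs, called 6 of 204 regions higher (2.94%) and 0 lower (0.0%). Of 192 regions tested in both populations, 4 were called in both, ChIPCRM3152, CG7759_33, ChIPCRM2907 and ChIPCRM2898. The difference of enrichment between CD2+ and CD2- cells was then tested itself, in 1 fit over the 12 twi libraries. It called 0 of 211 regions higher and 0 lower (0.0% each), with 21 at an unadjusted p under 0.05, while DESeq2 called 5 higher and 7 lower. These tests do not show that the regions acted alike in both populations.

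The largest differences among the called regions were those of ChIPCRM2300 and ChIPCRM2754. ChIPCRM2300 had 21.6 to 26.9 CPM in CD2- GFP+ cells and 1.49 to 1688 CPM in their input, beside 6474 to 11444 CPM in CD2+ GFP+ cells. The difference of log2 changes, CD2+ minus CD2-, was 13.79 ± 3.03 (adjusted p = 0.0705). It passed without the second CD2+ input (16.71, adjusted p = 0.0370) and without the first CD2- input (14.41, adjusted p = 0.0132). ChIPCRM2754 had 529 to 680 CPM in CD2- GFP+ cells, below all their inputs at 1117 to 4215 CPM, and 15857 to 23883 CPM in CD2+ GFP+ cells. Its difference was 5.24 ± 1.18 (adjusted p = 0.0705), in the same direction as for ChIPCRM2300, and 6.46 without the third CD2+ input (adjusted p = 0.0272).

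CG7759_33 had 48196 to 73338 CPM in CD2- GFP+ cells and 5051 to 13512 in their input, and its log2 change there was 4.14. The CD2+ GFP+ libraries, at 120064 to 192258 CPM, all lay above the CD2- ones. Its difference of enrichment was 1.74 ± 0.60 (adjusted p = 0.213). It passed without the third CD2+ GFP+ library (2.32, adjusted p = 0.0227) and without the third CD2- input (2.31, adjusted p = 0.0478), and was -0.0665 by DESeq2. ChIPCRM2299 and ChIPCRM2497 differed by 2.30 ± 0.74 and 3.50 ± 1.22 (adjusted p = 0.190 and 0.213), with CD2+ higher.

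For the remaining called regions the differences were smaller than 1.5 times their standard errors. They were 0.02 ± 0.28 for ChIPCRM3152, -0.56 ± 0.39 for ChIPCRM2907, -0.27 ± 0.63 for ChIPCRM2898, 0.96 ± 0.78 for ChIPCRM2256 and 1.22 ± 1.38 for ChIPCRM2847. ChIPCRM3152 was also the most abundant region of CD2- GFP+ cells, at 251045 to 291565 CPM. ChIPCRM3147, not called in CD2+ cells, was called in CD2- cells (log2 change 15.14, adjusted p = 0.00850), and its difference was -2.17 ± 2.60.

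**Figure D5:**
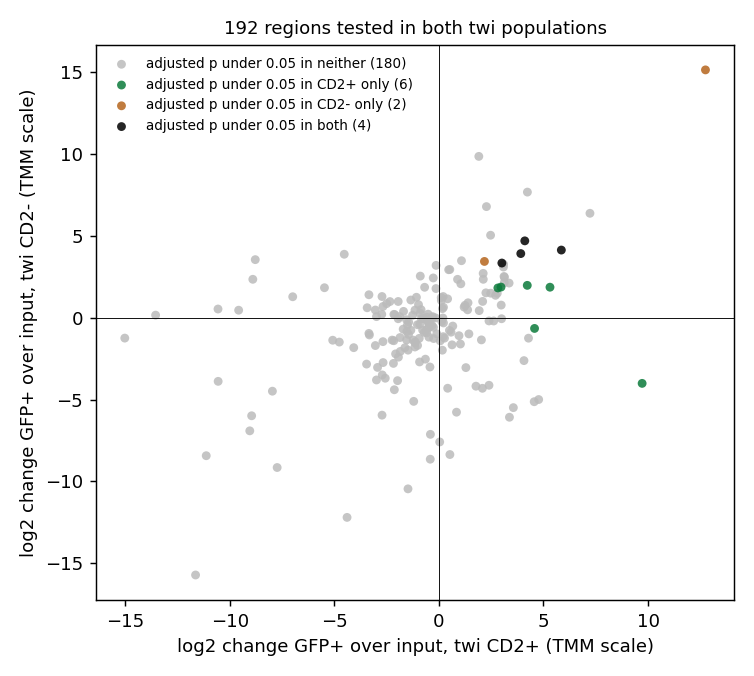
Log2 change of GFP+ over input on the TMM scale in twi CD2- cells (y axis) against that in twi CD2+ cells (x axis) for the 192 regions tested in both, coloured by the test that each passed. The 4 regions called in both lie in the upper right, and ChIPCRM2300 and ChIPCRM2754 lie to the right and below 0, while 0 regions passed the test of the difference.

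The 3 most abundant regions were set beside the CD2- cells of embryos with the mef2 driver, of which 3 GFP+ libraries and 3 inputs were used, without a test. Mef2 is a transcription factor of muscle differentiation. CG7759_33 had 115544 to 128357 CPM there against 5043 to 9206 in input. ChIPCRM3152 had 101631 to 125196 CPM against 8171 to 20674, and ChIPCRM2907 had 92614 to 107506 CPM against 14728 to 27101. In these 3 regions the GFP+ libraries thus lay above the inputs in that population as well.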

How the data were processed

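The 6 libraries used (3 of twi CD2+ GFP+ cells, 3 of twi CD2+ input) were compared, with 6 of twi CD2- and 6 of mef2 CD2- cells beside them. The submitters' processing notes name CASAVA 1.8 and the build dm3, and no version of the mapper. Tables as deposited hold an expected count per region, which is the counts of reads at its start and end plus other reads, and may be fractional. Per the file headers, GC content is given as a fraction of the region. The covered-positions column is undefined in the sources used here and was left out. Because 11 tables gave 3 regions on 2 lines each, with equal counts, such lines were summed.

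Expected counts were rounded and analysed in R 4.3.3 by the quasi-likelihood F test of edgeR 4.0.16, after filterByExpr and TMM scaling, with p-values adjusted by Benjamini-Hochberg and a threshold of 0.05. A standard error is the size of the log2 change divided by the root of F. Libraries held 18016557 to 23034282 reads, and 3 reads were taken as what a count of 0 allows. Reads are PCR products without molecular identifiers, so floors cover counting error. The scripts were tested on simulated data.

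Same-numbered libraries of both groups deviated together (correlation of deviations from the group means 0.331, 0.166 and 0.205, other pairs -0.227 to -0.0292), so the labels' replicate numbers may pair them. The main edgeR test and the exact permutation tests did not model such a pairing. It entered only the replicate block, run as an alternative. No libraries were duplicates. Alternatives were total-read scaling, DESeq2 1.42.0, no filter, a mean count of at least 100, end reads, the replicate block, spread from 4 twi groups, and leaving out each library.

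Named were all called regions, the 10 most abundant in either group, the 10 largest and smallest changes with groups apart, tested gene-named regions (described by list, some as counts), the extremes by class and arm, and regions within 5 kb of a call. Members, lists and this rule were chosen with earlier results of these data known. Symbols came from a RefSeq gene table of a later assembly, used for names. No genome was used, so regions appear without sequence and were not placed relative to genes.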

Additional observations from a re-analysis of the deposited data

How the results depend on the processing

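What limited the number of calls, depth or the number of libraries, was not tested. Shares in 3 against 3 libraries cannot reach a p under 0.1. For the regions higher (10) and lower (0) in twi CD2+ GFP+ cells, total-read scaling gave 6 and 4, DESeq2 13 and 11, and leaving out 1 library 5 to 13 and 0 to 2. The lowest count, 5, came without the second GFP+ library, and the 2 lower came without the first. The replicate block gave 11 and 0 and added ChIPCRM3407, and it changed no other call. Among called regions, total-read scaling ended the calls of ChIPCRM2256 (adjusted p = 0.130), ChIPCRM2754 (0.0698), ChIPCRM2847 (0.249) and ChIPCRM2898 (0.122), DESeq2 those of ChIPCRM2256 (0.0717) and ChIPCRM2847 (0.0790), and the spread from 4 twi groups that of ChIPCRM2847 (0.163), while it added ChIPCRM3147. For the difference of enrichment (0 and 0), DESeq2 gave 5 and 7, leaving out 1 library 0 to 2 and 0 to 1, and the replicate block 0 and 0.

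Some uncalled values changed sign. With total-read scaling the log2 change was -1.09 for CBP1410 and -0.50 for ChIPCRM3043, -1.48 for CG11202_down_9, -1.27 for CG15319_down_11, -0.147 for DHS_FCM_6 and -1.57 for slou_Up_14, and the difference was -0.33 for ChIPCRM3152. With DESeq2 the log2 change was 0.0507 for DHS_FC_15, 0.0476 for Ubx_18 and 0.0071 for cib_Up_4, and the difference was -0.0665 for CG7759_33 and -0.99 for ChIPCRM2256. The replicate block gave -3.64 for CG11202_up_4, -0.0534 for CG15319_down_11 and -0.447 for slou_Up_14. Leaving out 1 library gave log2 changes of -0.70 to 0.0189 for cib_Up_4, -6.06 to 0.425 for CG10275_32, -0.177 to 1.12 for CG11202_down_9, -6.61 to 3.63 for CG11202_up_4, -8.92 to 4.17 for CG15319_b_c_1, -0.0452 to 0.69 for CG15319_down_11, -9.89 to 1.88 for ChIPCRM2298, -12.48 to 0.40 for mid_30, -11.32 to 0.42 for rst_8 and -0.58 to 0.97 for slou_Up_14, and differences of -0.41 to 0.19 for ChIPCRM2898 and of -0.0806 to 0.50 for ChIPCRM3152. The CBP share of reads, GFP+ minus input, was 0.319 percentage points without the most abundant region and 0.0085 without the first GFP+ library. The gene-named share was -1.29 with end reads, and -1.03 (without the first GFP+ library) to 1.56 with 1 library left out, -0.0006 without the second input, and 4.66 without the most abundant region. The causes of these changes were not tested.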
